A study of Marchantia polymorpha with 6 samples.

Results

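The regions described here are the copies of Gypsy long terminal repeat (LTR) elements that were found by homology on the 8 autosomes of the liverwort Marchantia polymorpha, apart from the large families TE_00001068 and TE_00000762. They were taken from the deposited element annotation as the rows of class LTR and family Gypsy on chromosomes 1 to 8 whose identifier begins with TE_homo, without the labels of those 2 families. This gave 18002 copies, of 27531 Gypsy copies and 89262 annotated copies of any class in the genome. The series compared the expression of genes and transposable elements after loss of MpMET, which codes for the liverwort form of MET1, the enzyme that copies CG methylation onto new DNA strands in plants. RNA was sequenced from thalli, the flat plant body, at 14 days, in 3 libraries of the wild-type line Tak-1 and 3 of the mutant Mpmet-3. The labels name them biological replicates and do not describe the lesion in Mpmet-3. The deposited files are genome annotations with no value for a library, so expression was not analysed here, the depth is unknown, and every comparison below describes where copies lie in 1 genome. Positions are in MpTak1 v5.1 revision 2, the assembly of Tak-1, counted from 1.

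A Gypsy element is a retrotransposon. It is copied through an RNA intermediate and carries a repeat at each end, the LTR, which holds the start and stop signals of transcription. The inner part between the LTRs codes for the gag structural protein and for the pol enzymes, among them reverse transcriptase and integrase. In plants such elements are usually held silent by DNA methylation, CG methylation included. Recombination between the LTRs of one element can leave a single LTR without its inner part, so LTR copies and inner copies need not occur in equal number.

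Each copy carries a library label that ends in _LTR or in _INT, for a terminal repeat or an inner part. INT labels were carried by 10224 copies (56.8%) and LTR labels by 7778 (43.2%). The 65 labels comprised 49 INT and 16 LTR labels, and 0 of the label numbers occurred with both endings. A terminal repeat and an inner part of the same element therefore do not share a number in this annotation. Merged, the copies covered 12.8 Mb, or 6.14% of the autosomes, of which INT copies covered 8.72 Mb and LTR copies 4.08 Mb. The plus strand held 9027 copies and the minus strand 8975.

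A few labels made up most of the sequence. The 8 labels with most bp held 50% of it and 23 labels held 90%. The 10 labels with most bp together held 60.1%. TE_00000616_LTR came first with 1789 copies and 1074 kb, followed by TE_00000842_INT with 589 copies and 943 kb. TE_00000678_LTR covered 825 kb in 855 copies, TE_00000770_INT covered 822 kb in 435 copies and TE_00000563_INT covered 798 kb in 875 copies. TE_00001110_INT covered 770.1 kb in 541 copies and TE_00001168_INT 729 kb in 621 copies. TE_00000520_LTR was the label with most copies, 1856, and covered 626 kb. TE_00001141_LTR had 1351 copies over 607 kb and TE_00000943_INT had 1017 copies over 526 kb. LTR copies were concentrated in fewer labels: the 3 most numerous LTR labels held 64.2% of all LTR copies, and the 3 most numerous INT labels held 29.1% of all INT copies. Of the 65 labels, 50 occurred on all 8 autosomes, and 55 had at least 20 copies.

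Labels with different numbers adjoined each other in fixed orders. Copies of any class that overlapped or lay at most 20 bp apart were read as adjoining, and the labels named in the following paragraphs outside the 10 above were chosen after their values were seen. The order TE_00000520_LTR, TE_00000917_INT, TE_00000936_INT, TE_00000842_INT, TE_00000520_LTR occurred 76 times, on all 8 autosomes, with all 5 copies on the same strand in every case. These runs had a median span of 6035 bp and ranged from 5296 to 6127 bp. The inner copies had median lengths of 1782 bp for TE_00000917_INT, 549.0 bp for TE_00000936_INT and 2881 bp for TE_00000842_INT. For scale, the annotation also lists 298 Gypsy elements with the number TE_00000842 that were found from their structure, which are not among the copies described here, and their median length was 6062 bp. The spans of the runs had quartiles of 5916 and 6057 bp, so that median lay above the upper quartile and within their range. The runs hold TE_00000842_INT, which bears the same number, so the lengths may not be independent.

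TE_00000616_LTR flanked a longer run. The order TE_00000616_LTR, TE_00001164_INT, TE_00000599_INT, TE_00001096_INT, TE_00001011_INT, TE_00000616_LTR occurred 30 times on all 8 autosomes, with a median span of 7678 bp. TE_00001011_INT lay on the strand opposite to the run in all 30 runs, while the other inner copies lay on the strand of the run in all of them. The first TE_00000616_LTR copy lay on the strand of the run in 29 runs. Structure-based elements with the number TE_00001164 were listed 63 times with a median length of 7856 bp. The spans of the runs had quartiles of 7492 and 7764 bp and a maximum of 7866 bp, so that median lay above the upper quartile. A copy of TE_00001040_INT between TE_00000739_LTR copies formed a unit of median span 10088 bp in 7 places, and between TE_00000873_LTR copies a unit of 10053 bp in 3 places. The units ranged from 7622 to 10987 bp and from 7782 to 10055 bp. The 17 structure-based elements numbered TE_00001040 had a median length of 10111 bp, with a range of 8753 to 15469 bp. Here too the runs and units hold an INT label of the same number, so the lengths may not be independent. The 5 longest copies of the whole set, 6210 to 6218 bp, were all TE_00001040_INT.

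**Figure D1:**
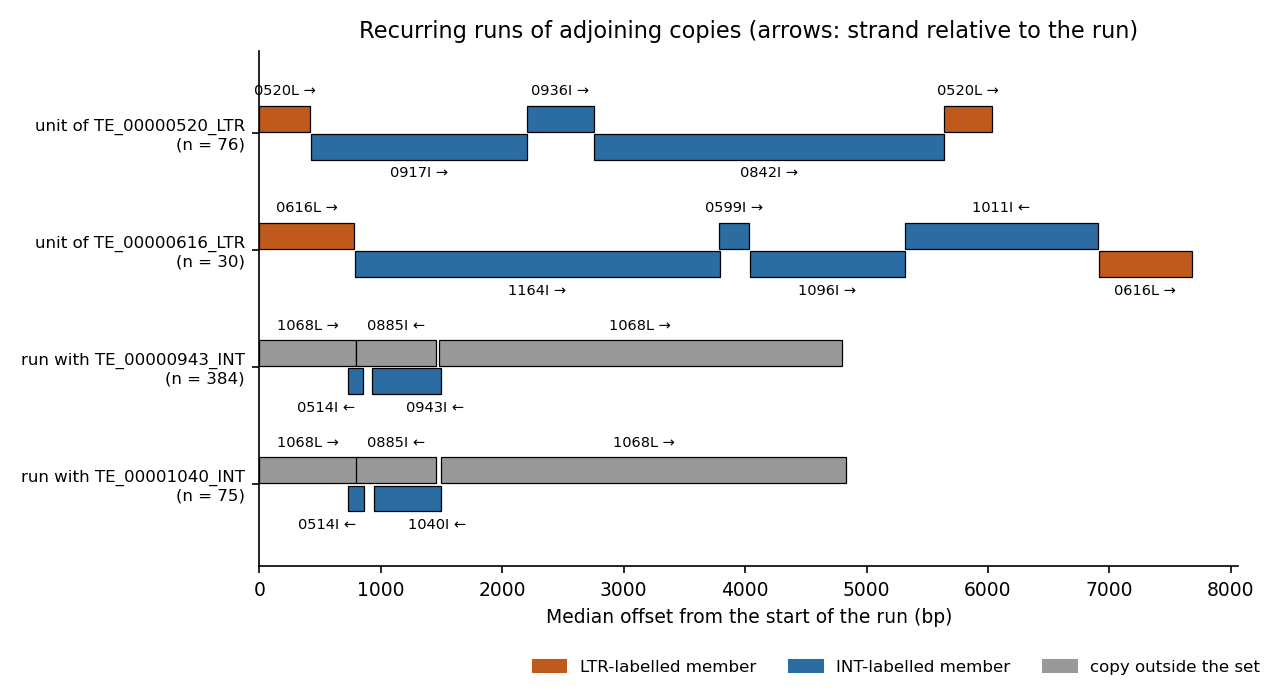
Recurring runs of adjoining copies, drawn to scale from the median offset of each copy in bp from the start of the run, with LTR-labelled copies in orange, INT-labelled copies in blue and copies outside the set in grey; numbers are the last 4 digits of the label with L for LTR and I for INT, and n is the number of runs. The unit of TE_00000520_LTR spans 6035 bp and that of TE_00000616_LTR 7678 bp, and the lower runs show TE_00000943_INT or TE_00001040_INT at the same place between copies of TE_00001068_LTR.

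Counting every pair of copies of 1 LTR label on the same strand that enclosed at least an inner copy in an unbroken run, there were 403 flanked units, over 9 LTR labels. TE_00000520_LTR made 182 of them (45.2%), which took up 353 (19.0%) of its 1856 copies. TE_00000616_LTR made 91 units from 174 (9.73%) of its copies. TE_00001141_LTR, with 1351 copies, made 37 units from 5.48% of them.

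INT-labelled copies of the set also lay inside runs of TE_00001068_LTR, one of the large families left out by the rule. The order TE_00001068_LTR, TE_00000514_INT, TE_00000885_INT, TE_00000943_INT, TE_00001068_LTR occurred 384 times with a median span of 4796 bp. The flanking copies were unequal in length, with medians of 797.0 bp at the start of the run and 3316 bp at its end. In the unit of TE_00000520_LTR the flanking copies had medians of 417.5 and 417.0 bp. Whether the flanking TE_00001068_LTR copies are the terminal repeats of an element was not tested. The 3 inner copies lay on the strand opposite to the TE_00001068_LTR copies in all 384 runs. TE_00000885_INT is an INT label of class LTR without a superfamily and is not in the set. Of 1017 links between a TE_00000514_INT and a TE_00001068_LTR copy, 1010 (99.3%) had 1 arrangement. The 330 links of TE_00000943_INT with TE_00000678_LTR were as uniform: 329 of them (99.7%) had 1 arrangement, again on opposite strands.

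The next copy after TE_00000514_INT and TE_00000885_INT was mostly of 4 INT labels, each at a near-constant length in that place. Among 982 runs with this pair, the next copy was TE_00000943_INT in 686 (69.9%), TE_00001040_INT in 100 (10.2%), TE_00000594_INT in 66 (6.72%) and TE_00001203_INT in 36 (3.67%). TE_00000678_LTR followed in 29 runs (2.95%) and TE_00001068_LTR in 27 (2.75%), with lengths that varied more, quartiles of 564.0 to 1556 bp and of 2233 to 3242 bp. The median length at this place was 569.0 bp for TE_00000943_INT, 554.0 bp for TE_00001040_INT, 554.0 bp for TE_00000594_INT and 587.0 bp for TE_00001203_INT. By median offsets in the 384 runs, TE_00000885_INT lay from 795.0 to 1450 bp and TE_00000943_INT from 927.0 to 1494 bp. The next copy there thus lay mostly on bases that TE_00000885_INT also covers, and is not a separate piece behind it. Over all its copies, TE_00000943_INT measured exactly 569 bp in 450 of 1017 (44.2%) and was within 5 bp of that in 716 (70.4%). TE_00001040_INT measured exactly 554 bp in 100 of 265 copies (37.7%), although its longest copy reached 6218 bp. The run with TE_00001040_INT in this place, flanked on both sides by TE_00001068_LTR, occurred 75 times and spanned 4829 bp. Its flanking copies were also unequal, with medians of 805.0 and 3331 bp.

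**Figure D2:**
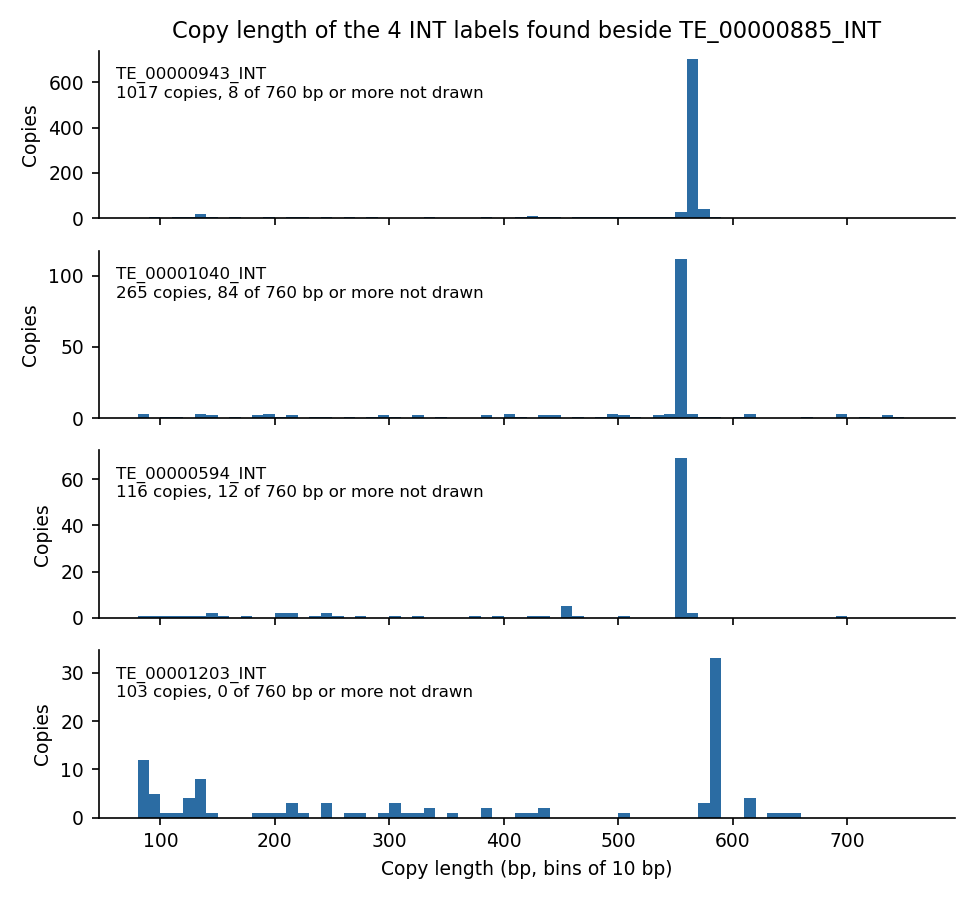
Number of copies by copy length in bins of 10 bp, over all copies of the 4 INT labels most often found after TE_00000514_INT and TE_00000885_INT; each panel states how many longer copies are not drawn. TE_00000943_INT has its most common length at 569 bp and TE_00001040_INT and TE_00000594_INT at 554 bp, while TE_00001203_INT, with a median of 587.0 bp in that place, also has many short copies.

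In these runs the annotation gives some bases more than once. Of the bp of TE_00000514_INT, 91.0% were shared with a copy of another label. The share was 51.0% with TE_00001068 and 43.3% with copies of class LTR without a superfamily, among which is TE_00000885_INT. For TE_00000943_INT the shared part was 65.1%. Nearly all of this, 64.0% of its bp, was shared with copies of class LTR without a superfamily, whose labels can end in _LTR or _INT. Over the whole set 10.5% of bp were shared, 12.8% for INT and 5.55% for LTR copies. The main labels of the other units shared little, 0.696% for TE_00000520_LTR, 0.439% for TE_00000616_LTR and 0.256% for TE_00000842_INT. TE_00000563_INT shared 36.0% of its bp. In 378 of its 400 links (94.5%) with TE_00001142, a label of the DNA transposon code DTT (Tc1/Mariner), the arrangement was the same, on opposite strands.

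LTR copies were shorter than INT copies on every autosome. The median LTR copy was 390.0 bp on chromosome 1 and between 398.0 bp and 409.0 bp on the other autosomes. The median INT copy lay between 554.0 and 568.0 bp, so the per-autosome medians of the 2 kinds did not overlap. As means over autosomes the medians were 404 ± 6.84 bp for LTR and 559 ± 5.93 bp for INT (SD, n = 8), a difference of -155 ± 10.4 bp in an exact 2-sided sign-flip permutation test over autosomes (adjusted p = 0.0104, LTR shorter on 8 of 8). The unadjusted p of 0.00781 is the smallest that 8 autosomes allow, and adjustment was over the 12 tests given here with a threshold of 0.05. Copies over 1 kb made up 10.5% of LTR copies (818) and 28.7% of INT copies (2930). Lengths ranged from 50 to 6218 bp, with a median of 471.0 bp. Medians of labels with at least 20 copies overlapped, from 88.00 to 1003 bp for LTR and from 132.0 to 1709 bp for INT labels. With equal weight for each such label the difference was -181 ± 112 bp (exact sign-flip permutation, adjusted p = 0.0234). The share of copies at the length seen in the recurring runs differed between labels. TE_00000842_INT, most often 2881 bp long, was within 5 bp of that length in 103 of 589 copies (17.5%), and TE_00000936_INT, most often 550 bp long, was within 5 bp of it in 122 of 281 (43.4%).

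Nearly all copies lay outside genes. A gene was read as the span of its exons, and 0.366% of member bp fell in exons, 0.269% in introns and 99.4% outside genes. Of all autosomal bp, 20.4% were exonic, 12.8% intronic and 66.8% outside genes. A gene was overlapped by 218 copies (1.21%), and 790 (4.39%) lay within 1 kb of a gene, overlaps included. More than 10 kb from any gene lay 6996 copies (38.9%). The median distance to the nearest gene was 7526 bp, and the farthest copy lay 179826 bp away.

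LTR copies lay closer to genes than INT copies on every autosome when each copy counted once. The median distance of LTR copies was 5464 bp on chromosome 1, 6661 bp on 2, 6637 bp on 3, 8057 bp on 4, 6472 bp on 5, 8501 bp on 6, 7208 bp on 7 and 6666 bp on 8. That of INT copies was 6290 bp on chromosome 1, 8053 bp on 2, 7203 bp on 3, 9210 bp on 4, 7724 bp on 5, 9890 bp on 6, 8851 bp on 7 and 7976 bp on 8. Values of the 2 kinds overlapped across autosomes, but within each autosome LTR copies were closer. The means were 6958 ± 956 and 8149.6 ± 1148 bp, a difference of -1191 ± 344 bp (SD, n = 8, exact sign-flip permutation, adjusted p = 0.0104). The call was lost with equal weight for each label of at least 20 copies (-607 bp, permutation adjusted p = 0.347) and without TE_00000514_INT, TE_00000943_INT and TE_00000563_INT, the INT labels with most copies (-274 bp, adjusted p = 0.102). Across labels, the median of the label medians was 6393 bp for 13 LTR labels and 6312 bp for 42 INT labels.

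**Figure D3:**
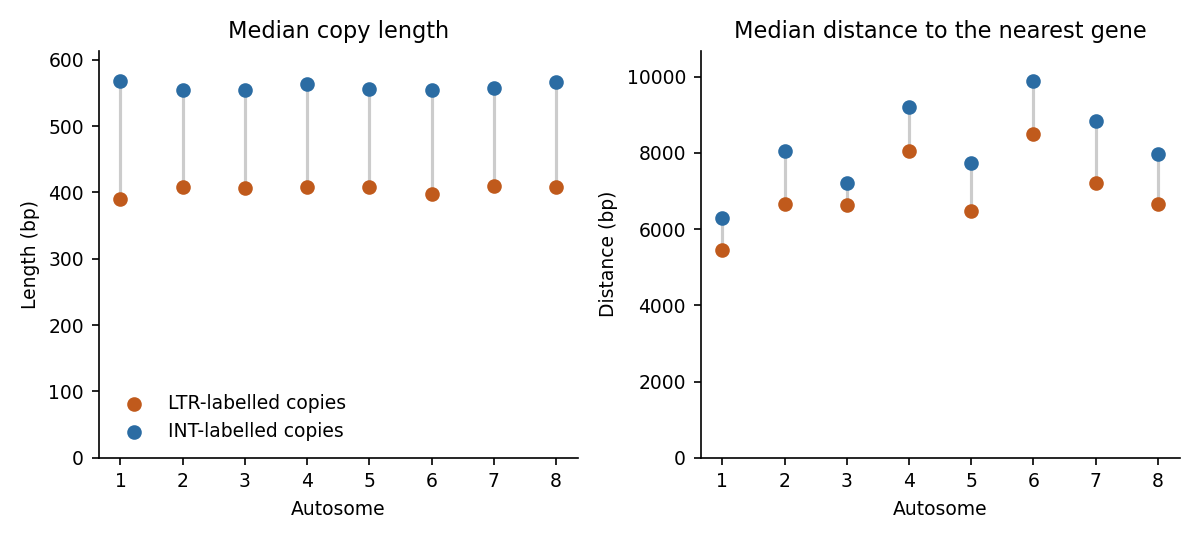
Median copy length in bp (left) and median distance to the nearest gene in bp (right) of LTR-labelled and INT-labelled copies on each of the 8 autosomes, 1 point per autosome and kind, joined by a grey line within an autosome. LTR copies are shorter on 8 of 8 autosomes, with means of 404 and 559 bp, and closer to genes on 8 of 8, with means of 6958 and 8149.6 bp.

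Close to genes the order was the other way round. Within 1 kb of a gene, overlaps included, lay 3.64 ± 0.733% of LTR and 4.98 ± 1.24% of INT copies, a difference of -1.34 ± 1.17 percentage points (SD, n = 8, exact sign-flip permutation, adjusted p = 0.0281, LTR lower on 7 of 8). This call was lost when chromosome 1, 3, 4, 6, 7 or 8 was left out (permutation adjusted p from 0.0511 to 0.0563), and with equal weight per label (-0.402, adjusted p = 0.812). Within 2 kb the difference was -0.762 percentage points (permutation adjusted p = 0.0767). The share that overlapped a gene was 0.866 ± 0.523% for LTR and 1.50 ± 0.492% for INT copies, a difference of -0.635 ± 0.709 points that missed the threshold (exact sign-flip permutation, adjusted p = 0.0625, LTR lower on 5 of 8). Without the 3 INT labels of most copies that difference was -1.12 points and passed (permutation adjusted p = 0.00937).

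Label medians of distance spanned a wider range than the medians of the 2 kinds. Of the labels with at least 20 copies, TE_00000630_INT had the lowest median distance to a gene, 541.5 bp, followed by TE_00000699_INT with 670.5 bp and TE_00001047_INT with 2147 bp. The highest medians were those of TE_00001203_INT (20267 bp), TE_00000770_INT (18467 bp) and TE_00000943_INT (13602 bp). All 6 of these are INT labels. LTR labels ranged from 4348 to 13319 bp, the latter for TE_00000678_LTR, which adjoins TE_00000943_INT in the runs above. The labels of the 6035 bp unit had medians of 4966 bp for TE_00000520_LTR, 5676 bp for TE_00000842_INT, 6247 bp for TE_00000917_INT and 7788 bp for TE_00000936_INT.

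**Figure D4:**
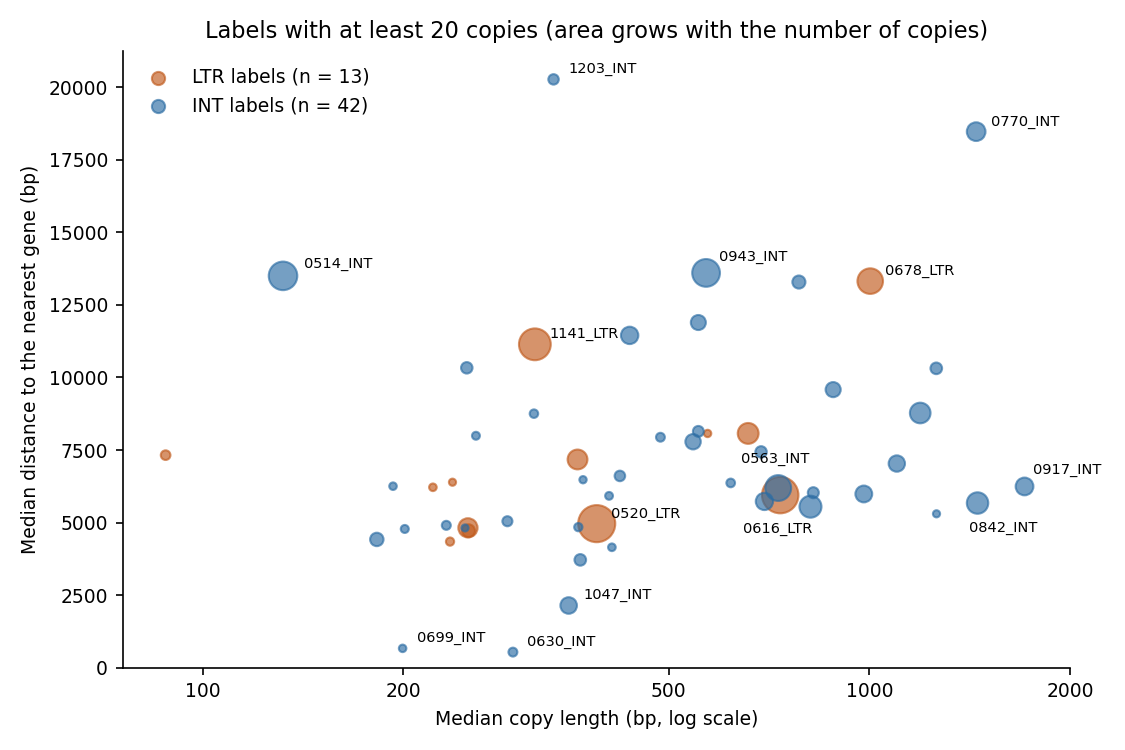
Median distance to the nearest gene in bp against median copy length in bp (log scale) for the 13 LTR and 42 INT labels with at least 20 copies, 1 point per label with area growing with its number of copies. TE_00000630_INT (541.5 bp) and TE_00000699_INT (670.5 bp) lie lowest, and TE_00001203_INT (20267 bp) and TE_00000770_INT (18467 bp) highest.

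TE_00001047_INT had 331 copies on all 8 autosomes, of which 94 (28.4%) lay within 1 kb of a gene and 19 (5.74%) overlapped one. TE_00000842_INT, with 589 copies, overlapped 0 genes, and 14 of its copies (2.38%) lay within 1 kb of one. TE_00000630_INT was unlike either. Of its 62 copies, 21 were within 5 bp of 397 bp long, and all 21 of these lay within 200 kb of a chromosome end, 9 of them on chromosome 1, 5 on chromosome 4 and the rest on 5 other autosomes. Each of these 21 copies overlapped a gene without coding sequence. Of the other 41 copies, 15 lay in the outer 1 Mb of a chromosome. Of all members, 8.14% lay in an outer 1 Mb, where 7.68% of the sequence lies.

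Copies that stood alone lay closer to genes than copies in runs. LTR copies with no adjoining copy on either side numbered 1536 (19.7%) and had a median distance of 4349.5 bp, those with a copy on 1 side 6334 bp and those with copies on both sides, 3444 (44.3%), 9224 bp. For INT copies the medians were 3362 bp for 1274 lone copies (12.5%), 6697 bp with 1 side and 10102 bp for 6194 copies with both (60.6%). Within 1 kb of a gene lay 19.5% of lone INT copies and 7.23% of lone LTR copies, against 1.49% and 1.57% of those with both sides adjoined. The share of lone copies was higher among LTR than INT copies. Adjoining copies can lie between a copy and the nearest gene, so part of this order can follow from how distance was measured. These values are a description and were not tested.

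The set differed from the large families that the rule left out, whose homology copies all carry LTR labels. LTR copies of the set were shorter, at 404 ± 6.84 bp against 806 ± 0.354 bp for TE_00001068 and 2063 ± 321 bp for TE_00000762 (means of the medians of 8 autosomes ± SD). The differences were -401 ± 6.93 and -1658 ± 326 bp (exact sign-flip permutation, adjusted p = 0.0104 for each, 8 of 8 autosomes). Pooled over labels, copies of the set lay closer to genes, at 7599.5 ± 1058 bp against 12788 ± 1801 bp for TE_00001068. The difference was -5188 ± 1223 bp (exact sign-flip permutation, adjusted p = 0.0104). Against TE_00000762, at 10351 ± 1561 bp, the difference was -2752 ± 1549 bp (exact sign-flip permutation, adjusted p = 0.0104). Copies of Copia, the other LTR superfamily, lay closer still at 4155 ± 313 bp, so members were 3445 ± 967 bp farther out (exact sign-flip permutation, adjusted p = 0.0104). Each of these 3 orders held on 8 of 8 autosomes. The comparisons of distance and length are of pooled copies and did not hold for every label. Median distances of labels with at least 20 copies ran from 541.5 to 20267 bp for INT and from 4348 to 13319 bp for LTR labels. Over all its copies the median of TE_00001068 was 12674 bp. Median lengths of the LTR labels ran from 88.00 to 1003 bp. Of Copia copies 5.16% overlapped a gene, and of members 1.21%.

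A larger share of the LTR copies of the set than of the large families had a Gypsy INT copy nearby on the same annotated strand. Any Gypsy INT copy on the same strand within 500 bp was found for 26.0 ± 2.12% of LTR members, for 12.7 ± 1.78% of TE_00001068 copies and for 18.1 ± 2.96% of TE_00000762 copies (SD, n = 8). The differences were 13.3 ± 2.74 and 7.89 ± 2.27 percentage points (exact sign-flip permutation, adjusted p = 0.0104 for each, higher on 8 of 8 autosomes). With either strand allowed the difference from TE_00001068 turned to -14.5 points (exact sign-flip permutation, adjusted p = 0.0104). That from TE_00000762 was then 11.7 points. Strands are those of the library sequences, so the same-strand share depends on how each label is oriented. It does not give how often an LTR copy has the inner part of its own element. In the 384 runs described above, TE_00000514_INT and TE_00000943_INT lay on the strand opposite to TE_00001068_LTR. Among labels of the set with at least 20 copies, the share on the same strand ran from 7.02% for TE_00000678_LTR and 10.4% for TE_00001141_LTR to 46.3% for TE_00000520_LTR and 53.1% for TE_00001029_LTR. For TE_00000678_LTR the share on either strand was 61.3%.

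Copies were most frequent on chromosome 4, with 96.9 per Mb and 6.97% of the sequence covered, and least frequent on chromosome 1, with 72.7 per Mb and 5.07%. The other chromosomes covered between 5.48% (chromosome 8) and 6.59% (chromosome 5). INT copies outnumbered LTR copies on every autosome, from 1.23 INT per LTR copy on chromosome 5 to 1.50 on chromosome 8. In the recurring units an inner part is divided over several INT labels, so this ratio counts annotated pieces and not elements. Of the links of INT copies to adjoining copies, 14.8% were with TE_00001068, which the rule left out. In 209 windows of 1 Mb the cover ranged from 0.621% to 19.1% with a median of 5.64%. Cover and number of genes in the window were inversely related, with Pearson's r of -0.697 and Spearman's rho of -0.627 over 209 windows that share their chromosome with their neighbours. Within single autosomes r lay between -0.894 and -0.507. Bases in genes were counted in the length of each window. The relation is given as a description.

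The same relation appeared between neighbouring genes. Of 17673 gaps between genes, 3326 (18.8%) held a member, and these had a median length of 16497 bp against 2907 bp for the gaps without one. A member was present in 1.59% of gaps up to 5 kb and in 99.1% of gaps over 50 kb. A longer gap has more room for a copy, and its length includes the copies in it. The presence of a member therefore rises with gap length in part by construction. The covered share also grew with the gap, from 0.479% of the bp of gaps up to 5 kb through 6.66% in gaps of 10 to 20 kb to 21.0% in gaps over 50 kb. Gaps over 20 kb up to 50 kb held 45.6% of all member bp that lay in gaps.

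**Figure D5:**
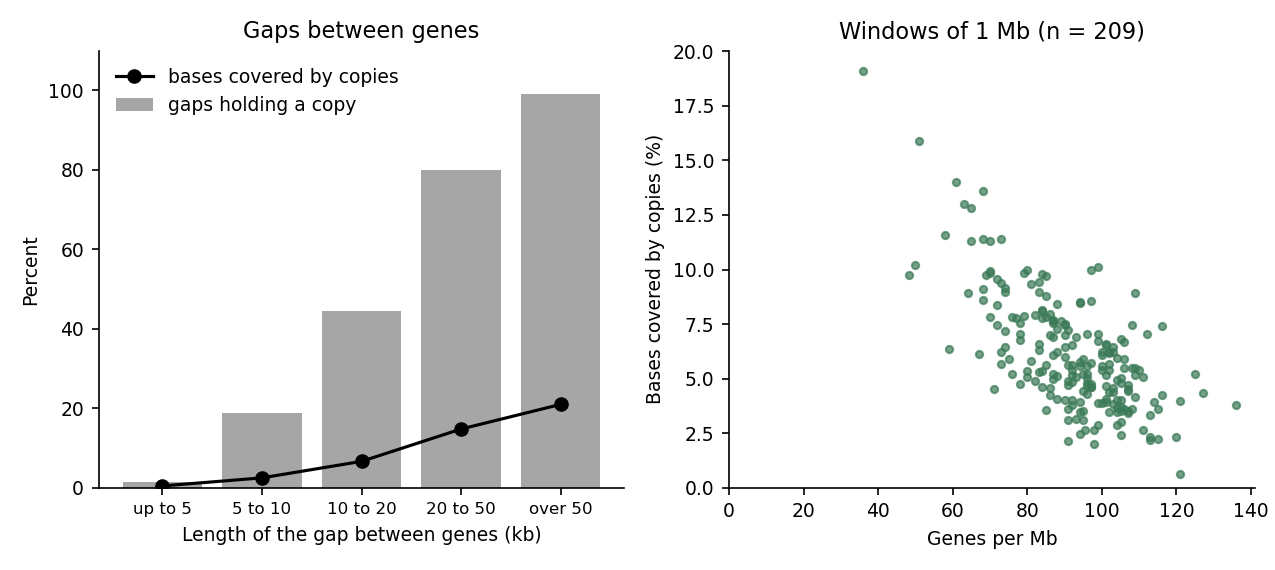
Percent of gaps between neighbouring genes that hold a member (bars) and percent of gap sequence covered by members (line) by length of the gap in kb (left), and percent of each 1 Mb window covered by members against the genes per Mb of the window (right, 1 point per window). The bars rise from 1.59% to 99.1%, cover rises from 0.479% in gaps up to 5 kb to 21.0% in gaps over 50 kb, and the window with the highest cover, 19.1%, holds 36 genes.

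Few genes contained member sequence. Of 19105 autosomal genes, 131 (0.686%) had at least 1 exonic bp in a member, 108 of them coding, and 58 had member sequence in an intron. In 7 genes, all coding, members made up at least 50% of the exonic bp. The largest exonic overlap was in Mp7g03040 (chromosome 7, 3858429 to 3863515, plus strand, 1 exon), with 2750 of 5087 exonic bp (54.1%). Mp1g06470 (chromosome 1, 6813018 to 6824679) followed with 2063 exonic bp. Mp6g13660 and Mp6g13670, which overlap on opposite strands of chromosome 6, shared the same copies and each had 1666 exonic bp. Next were Mp7g15780 with 1625 bp, Mp1g00370 with 1138 bp, Mp7g00060 with 1109 bp, Mp6g13070 with 1054 bp, Mp6g10280 with 1019 bp and Mp6g13450 with 944 bp. None of these 10 genes had a symbol in the table used.

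Among introns, those of Mp2g19550 (chromosome 2, 21233222 to 21259198) held 5541 intronic bp of TE_00001168_INT, TE_00001029_LTR and TE_00000835_INT, or 27.6% of its introns. Mp3g11660 held 2958 bp, Mp4g04450 held 2391 bp (73.5% of its introns), Mp8g05470 held 2195 bp and Mp2g19640 held 2097 bp. Mp4g19520 held 1796 bp, Mp6g13070 held 1662 bp, Mp5g23870 held 954 bp, Mp1g20170 held 769 bp and Mp1g11520 held 749 bp. Members made up 88.9% of the exonic and 90.4% of the intronic bp of Mp6g13070 (chromosome 6, 14371493 to 14374515). They also made up all of the 1000 bp before its start.

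In the 1 kb upstream of the gene start, 223 genes (1.17%) had at least 1 bp of a member. In 7 of them the whole 1000 bp were member sequence: Mp2g26100, Mp3g24200, Mp5g15010, Mp5g20840, Mp6g13070, Mp7g00040 and Mp8g08300. Mp2g26100 (chromosome 2, 28570778 to 28572293) lay entirely within 1 copy of TE_00000509_INT, with 888 of 888 exonic bp. All 884 exonic bp of Mp3g24200 (chromosome 3, 25622271 to 25623154) lay in 2 copies of TE_00001047_INT.

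Members that overlapped a gene or lay within 500 bp of one were more often on its strand. In the main setting, with a flank of 1 kb, the excess missed the threshold. Of 783 copies in or within 1 kb of a gene with 1 strand, 440 (56.2%) lay on the gene's strand. As a mean of autosomes this was 55.7 ± 6.75%, or 5.68 points above 50 (exact sign-flip permutation, adjusted p = 0.0511, higher on 6 of 8 autosomes, lower on 1 and equal on 1). The value passed without chromosome 5 (7.21 points, permutation adjusted p = 0.0341). It also passed with copies of 1 label and strand within 100 bp joined (6.17 points, permutation adjusted p = 0.0391). It missed the threshold when any other autosome was left out, and was lowest without chromosome 1 (3.97 points, permutation adjusted p = 0.102). With a flank of 500 bp the share was 65.4% (266 of 407, 14.7 points in the mean of autosomes, permutation adjusted p = 0.0170). Among copies that overlapped a gene it was 73.2% (156 of 213, 21.4 points, permutation adjusted p = 0.0187), a setting chosen after the data were seen. Within 2 kb it was 51.8% (999 of 1927). The counts within each flank include the copies that overlapped a gene. With coding genes only, 133 of 190 overlapping copies (70.0%) lay on the gene's strand, a share that was not tested. Within 1 kb of coding genes the excess was 4.85 points and missed the threshold (permutation adjusted p = 0.0767). Strands are those of the library sequences, which need not be read in the sense in which the element is transcribed.

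Genes for DNA methylation and small RNA were set against members, because MpMET is the gene lost in the mutant. Of the 14 symbols for DNA methylation, 8 could be matched, and their median distance to the nearest member was 7648 bp, with 5 (62.5%) within 10 kb. Of the 12 small RNA symbols, 9 were matched, with a median of 11879 bp and 4 (44.4%) within 10 kb. Over all 18134 autosomal coding genes the median was 15014 bp, with 37.8% within 10 kb. MpMET itself (Mp6g18180, chromosome 6, 20269397 to 20281226, minus strand) had a TE_00000520_LTR copy of 273 bp 2818 bp upstream. MpDNMT3b, a relative of the animal enzymes that set methylation de novo, had a TE_00001047_INT copy 1008 bp upstream. MpDDM1, a chromatin remodeller needed for element methylation in Arabidopsis, had a TE_00000616_LTR copy 1450 bp downstream. MpCMTa and MpCMTb, of the chromomethylase family, lay 9701 and 20512 bp from a member, MpDRMa and MpDRMb, of the family that acts in RNA-directed methylation, 10729 and 52038 bp, and MpDNMT3a 5596 bp.

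Among the small RNA genes, MpAGO9, an Argonaute, had 2 copies of TE_00000652_INT inside the gene, with 332 bp (6.16%) of its exonic sequence. MpAGO4b lay 1322 bp, MpDCL4, a Dicer, 1962 bp, MpNRPD1, the large subunit of RNA polymerase IV, 5913 bp and MpAGO4a 11879 bp from a member. MpDCL1a (24748 bp), MpAGO1 (30820 bp), MpHEN1, a small RNA methyltransferase (36316 bp), and MpDCL3 (58353 bp) lay farther away. The distances of single genes are descriptions of the annotation and say nothing of their expression.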

How the data were processed

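The 6 libraries were poly(A) RNA-seq, per the labels' protocols. Trim Galore and STAR are listed without a version, per the submitters' processing notes. The authors deposited 2 annotations and no value of a library (0 columns of sample values were left unused). The values are positions in bp (no other unit), deposited as the first and last base of each feature. The element annotation names EDTA as the source of every row, per the file itself. Which version of EDTA was run, and how, is not stated in the labels or the files. The score column held no value, so identity to a consensus was not analysed here.

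The members and lists were chosen with earlier results of these data known. A gene is the span of its exons, and overlapping copies of a set were merged to count bp. Distance runs from copy edge to nearest gene edge, 0 where they overlap. The units are the 8 autosomes: per-autosome medians or shares were compared by an exact 2-sided sign-flip permutation test (256 patterns), with Benjamini-Hochberg adjustment over 12 tests, and the test was tried on simulated data. Autosomes describe 1 genome, so no p-value speaks of variation between plants. The planned test of an inner part of the same label number could not be fitted, since 0 numbers carry both endings and every share is 0. Any Gypsy inner part on the same strand was used in its place, as foreseen with the design. The planned length comparison of INT copies could not be made, since the large families have no INT copies.

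Labels and genes named were, by rule, the 10 labels with most bp, the genes with most exonic, intronic and upstream member bp, the 5 longest copies and the matched genes of both lists. A further part of that rule, on families with at least 20 LTR and 20 INT copies, named none, so the labels with the extreme distances were taken from those of at least 20 copies. Symbols came from a table for MpTak2 v7.1, paired by locus number and gene length within 5%: 17624 pairs, of which 16479 were within 5% and 2860 had a symbol. Alternatives were a minimum length, joined copies, means, coding genes only, other flanks, windows and distances, and each autosome left out. Software was matplotlib 3.10.9, scipy 1.17.1, pandas 2.3.3 and numpy 2.4.6 under Python 3.11.15.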

Additional observations from a re-analysis of the deposited data

Results flagged for a closer look

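The difference in median length between LTR and INT copies stood apart on chromosome 1. It was -178 bp there and between -158 and -146 bp on the other 7 autosomes, a gap of 0.609 of the whole range. The direction was the same on every autosome. Of 27 sets of 8 per-autosome values examined in this way, this was the only one with such a gap, and chance alone gives it in about 1 of 20 sets. Its cause was not tested.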

How the results depend on the processing

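No paired analysis was possible because no deposited column holds a value of a library. The alternatives run left the direction of every tested difference as reported, except that with either strand allowed the inner-part difference from TE_00001068 was -14.5 points. Calls that changed were as follows. The LTR minus INT distance was -607 bp with equal weight per label and -274 bp without the 3 INT labels of most copies, and missed the threshold in both. The share within 1 kb missed it with a 2000 bp flank (-0.762 points) and with equal weight per label (-0.402), and ranged from -1.57 to -1.04 with an autosome left out. The share overlapping a gene passed with copies of 1 label and strand within 100 bp joined (-0.684) and without the 3 INT labels of most copies (-1.12). The strand excess passed with joined copies (6.17), a 500 bp flank (14.7) and overlapping copies only (21.4), and ranged from 3.97 to 7.21 with an autosome left out. The same-number inner-part difference was 0, and 13.3 and 7.89 with any Gypsy inner part. Of 65 tested values under other settings 55 kept direction and side of the threshold, as did 89 of 96 with an autosome left out. The window correlation, which has no test, was -0.622 in 500 kb and -0.645 in 2 Mb windows. The causes were not tested. Restricting to families with both endings left no copies and gave no value. Equal weighting, LTR members alone, omission of the 3 INT labels, either strand and overlapping copies only were chosen after seeing the data. Arithmetic on positions has no sampling error, and depth was not analysed here.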

Other observations

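The 1 Mb window with most copies, chromosome 4 from 15000001 to 16000000, held 261 copies, 99 LTR and 162 INT, on 19.1% of its sequence, with 36 genes. TE_00000514_INT and TE_00000943_INT each had 41 copies there, TE_00001141_LTR 40, TE_00000678_LTR 36 and TE_00000770_INT 31. TE_00000616_LTR, the label with most bp, had 9. The window with the lowest cover, 0.621%, lay on chromosome 2 from 24000001 to 25000000 and held 14 copies beside 121 genes.

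Labels differed in how evenly they were spread over the autosomes. TE_00001141_LTR had from 2.65 to 9.14 copies per Mb, the highest on chromosome 5, and TE_00000770_INT from 0.817 to 3.22, the highest on chromosome 4. TE_00000520_LTR, with 7.67 to 10.5 per Mb, and TE_00000616_LTR, with 6.94 to 9.60 per Mb, varied less in proportion. These are single values per autosome and were not tested.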
